A study of Mus musculus with 6 samples.

Results

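The transcripts described here are those of the solute carriers, the membrane proteins whose gene symbols begin with Slc, that were expressed in mouse embryonic submandibular gland. Of the 24067 genes in the deposited table, 360 had a symbol of this form ending in a digit. Of these, 174 had a mean of at least 1 FPKM (fragments scaled to transcript length and library size) over the 6 libraries. The members were thus chosen by their mean level over blebbistatin and control libraries together. The sodium, potassium and chloride cotransporter Slc12a2, the cystine exchanger Slc7a11, the glucose carriers Slc2a1 and Slc2a3 and the monocarboxylate carriers Slc16a1 and Slc16a3 were set aside, and 4 of these 6 were above the minimum, which left 170 genes. Slc35f1 is named first because its difference between the groups was already known, so its values are a description. The libraries were made from submandibular gland tissue of ICR embryos at embryonic day 13 (E13), with 3 blebbistatin libraries and 3 control libraries. Blebbistatin, a small-molecule inhibitor of non-muscle myosin II, stops this motor from pulling on actin. Epithelial buds are named in the series title, whereas the tissue label names the whole gland. Fibroblast collagens were low in these libraries (below), so the levels may not be those of the whole gland. The sources used here do not give the dose, duration, vehicle or glands pooled in a library. They do not say either whether replicates were separate cultures, and the p-values then cover library-to-library spread alone, which may be technical.

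Solute carriers move ions, nutrients and metabolites across membranes along or against gradients, in most cases without splitting ATP themselves. At the plasma membrane they take up amino acids, sugars, metals and vitamins and set pH and cell volume. Inside the cell, the Slc25 family exchanges metabolites across the inner mitochondrial membrane, and the Slc35 family brings nucleotide sugars and related cofactors into the Golgi and the endoplasmic reticulum (ER), where proteins are glycosylated. In the mature salivary gland, ion carriers drive the secretion of fluid, whereas the gland at E13 is a branching epithelium that does not yet secrete saliva. The substrate of Slc35f1 is not established.

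The libraries of both groups carried epithelial RNA, and little collagen RNA beside it. The 7 epithelial markers summed to 1250 to 1590 FPKM in blebbistatin libraries and 1320 to 1630 FPKM in control libraries. Of 7 mesenchymal markers 4 reached 1 FPKM, and the list, mostly Vim, summed to 334 to 373 FPKM in blebbistatin libraries and 280 to 352 FPKM in control libraries. The collagens Col1a1, Col1a2 and Col3a1, which define fibroblasts, averaged 1.17, 1.35 and 2.4 FPKM over the 6 libraries, and Twist1, Twist2 and Pdgfra averaged below 1. Control replicate 1 stood apart for the 3 collagens, at 3.06, 3.35 and 7.26 FPKM, and without it they averaged 0.796, 0.951 and 1.42 FPKM. Endothelial, neuronal and skeletal muscle markers had no member with a mean of 1 FPKM. The groups did not overlap for the endothelial sum, at 0.784 to 0.961 FPKM in blebbistatin libraries and 0.527 to 0.645 FPKM in control libraries. That sum was mostly Pecam1 and Tek, both higher in blebbistatin libraries without overlap. Cdh5 went the other way without overlap, at 0 FPKM in blebbistatin libraries and 0.0148 to 0.0441 FPKM in control libraries. For Kdr and Emcn the groups overlapped. The skeletal muscle sum did not overlap either, at 0.266 to 0.295 FPKM in blebbistatin libraries and 0.525 to 3.46 FPKM in control libraries. The neuronal sum was 0.647 to 1.87 FPKM in blebbistatin libraries and 0.393 to 1.99 FPKM in control libraries. The 4 leukocyte markers summed to 1.66 to 2.37 FPKM in blebbistatin libraries and 1.81 to 2.46 FPKM in control libraries. No listed marker was at 0 in all 6 libraries. The 4 erythrocyte markers summed to between 1.03 and 46.7 FPKM in blebbistatin libraries and between 1.8 and 189 FPKM in control libraries. The Schwann cell marker Sox10, which salivary end buds also express, was at 121, 158 and 152 FPKM in blebbistatin libraries and 214, 216 and 206 FPKM in control libraries, and the other 4 markers of that list were below 1 FPKM. The part of these differences in the values below was not tested. In bulk tissue, fewer cells of a type and less RNA per cell cannot be told apart. Depth in units of 1e6 fragments, estimated from the size of the step that 1 fragment makes in low FPKM values, was 28.7 to 29.6 in blebbistatin libraries and 29.2 to 35 in control libraries.

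Slc35f1 was the 1 solute carrier whose RNA differed past the threshold, at about 2.28 times its control level. It stood at 6.77, 7.87 and 6.2 FPKM in blebbistatin replicates 1 to 3, against 3.11, 3.32 and 2.73 FPKM in control replicates 1 to 3. Every blebbistatin library was thus above every control library. The group means were 6.95 ± 0.85 and 3.05 ± 0.299 FPKM (SD, n = 3 each). The log2 fold change was 0.97 ± 0.11 (SE) on the log2(FPKM + 1) scale, with an adjusted p of 0.0377 in limma over 11540 genes. Of those genes 9, or 0.078%, passed an adjusted p of 0.05, with 4 higher (0.0347%) and 5 lower (0.0433%) in blebbistatin libraries, and Slc35f1 ranked 6 by p. Nothing is read from this share, since Slc35f1 was known beforehand. The estimated number of fragments behind the value was 884 to 1158 in blebbistatin libraries and 403 to 578 in control libraries. The call was lost without blebbistatin replicate 1 (adjusted p = 0.111) or 2 (0.119) and without control replicate 1 (0.110), 2 (0.175) or 3 (0.152), while the log2 fold change over all 6 omissions stayed between 0.89 and 1.04.

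Slc35f1 lies on the plus strand of mm10 at chr10:52690501-53111622, has 1 annotated transcript of 4973 nt, and shares no exon with another gene of the deposited annotation. The window around its start is shown because it is the 1 member called, from 250 bases before to 50 bases after the annotated start (RefSeq, GRCm38.p6, plus strand, chr10:52690251-52690550), with the transcribed bases in capitals.
Slc35f1: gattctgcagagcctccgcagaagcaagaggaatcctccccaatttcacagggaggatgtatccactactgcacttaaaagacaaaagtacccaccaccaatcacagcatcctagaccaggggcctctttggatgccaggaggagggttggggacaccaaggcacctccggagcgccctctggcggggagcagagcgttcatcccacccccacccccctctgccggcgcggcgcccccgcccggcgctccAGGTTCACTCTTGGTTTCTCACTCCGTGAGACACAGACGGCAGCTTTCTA
This window has 60.7% G and C. The median window was 62.0% for the 129 members with an entry in the RefSeq promoter table and 52.8% for all 27025 genes in it. The letters GGAATG, the core bound by TEAD factors, occurred on either strand in windows of 22 of the 129 members (17.1%) and 16.6% of all genes, and not in that of Slc35f1. TGATGNAA, a form of the amino acid response element, occurred in 2.33% of the members and 4.51% of all genes, and TGCGCNC, a form of the metal response element, in 30.2% of the members and 17% of all genes. A match describes the letters and is not a site. All genes here include those not expressed, and the shares were not matched for G and C content.

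In the other expressed Slc35f genes the groups overlapped. Slc35f2 was at 3.4, 4.37 and 4.48 FPKM in blebbistatin libraries and 4.73, 4.89 and 4.29 FPKM in control libraries. Slc35f5 was at 13.5, 12.1 and 11.7 FPKM in blebbistatin libraries and 12.4, 10.9 and 11.5 FPKM in control libraries. Slc35f6 was at 6.4, 6.89 and 5.71 FPKM in blebbistatin libraries and 7.1, 5.54 and 6 FPKM in control libraries. The adjusted p values of Slc35f2, Slc35f5 and Slc35f6 were 0.849, 0.941 and 0.999 (limma). Slc35f3 (means of 0.199 and 0.268 FPKM in blebbistatin and control libraries) lay under the minimum, and Slc35f4 was listed at 0 in 5 of the 6 libraries. The log2 fold changes of Slc35f2, Slc35f5 and Slc35f6 were -0.15, 0.10 and 0.03, and the difference between them and Slc35f1 was not itself tested.

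**Figure D1:**
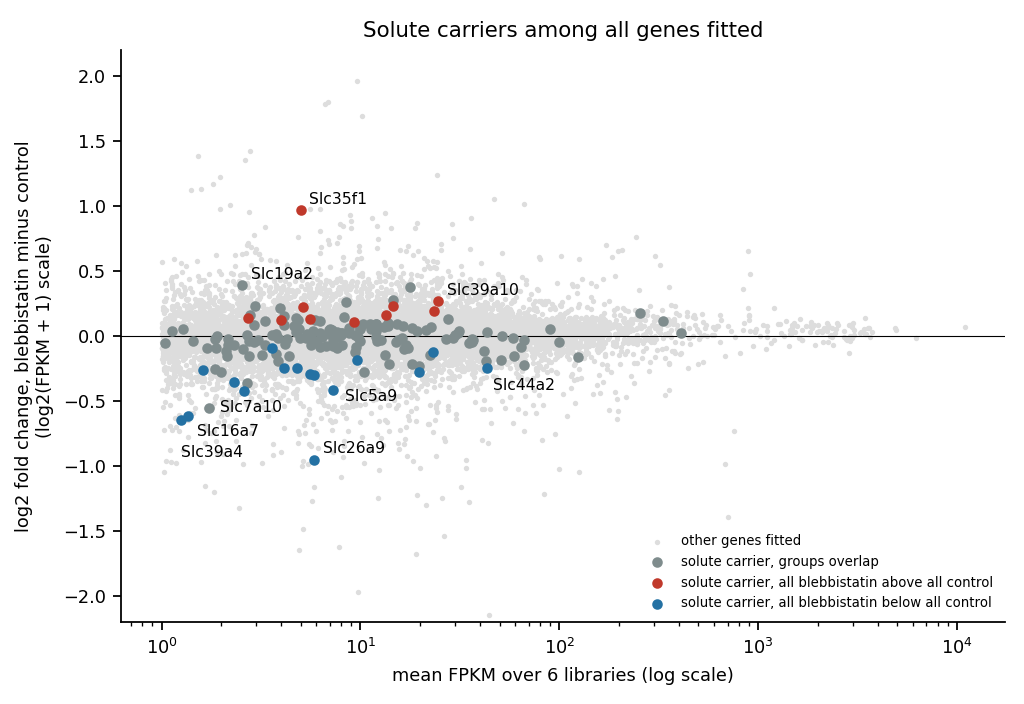
Log2 fold change (blebbistatin minus control, log2(FPKM + 1) scale) against mean FPKM over the 6 libraries (log axis) for the 170 solute carriers (large points) and the other genes fitted (grey). Red and blue mark carriers whose 3 blebbistatin values lay all above or all below the 3 control values; Slc35f1 at 0.97 and Slc26a9 at -0.95 stand farthest from 0, and 19 genes beyond 2.2 are not drawn.

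The expressed solute carriers differed between the groups about as much as other genes. Of the 170, 138 (81.2%) had a log2 fold change within 0.2 of 0, beside 82.1% of all genes. In 5 (2.94%, beside 3.08% of all genes) it exceeded 0.5 in size, namely Slc35f1, Slc26a9, Slc39a4, Slc16a7 and Slc7a10. The median was -0.015 (quartiles -0.092 and 0.059), against 0.015 over all 11540 genes. Of the members 44.7% had a higher mean log2 value in blebbistatin libraries, beside 55.2% of all genes. The groups did not overlap for 26 members (15.3%), beside 14.3% of all genes. In 10 of these (5.88%, beside 7.48% of all genes) the blebbistatin values were higher, and in 16 (9.41%, beside 6.8%) lower. An unadjusted p under 0.05 was reached by 19 members (11.2%), beside 9.36% of all genes, with 5 higher (2.94%, beside 4.46%) and 14 lower (8.24%, beside 4.9%). Without regard to direction these shares lie close to the background, while by direction the lower share is above it and the higher share below it. Whether this balance differs from that of other genes was not tested. The summed FPKM of the 170 genes was 3340 ± 83.8 in blebbistatin libraries and 3350 ± 154 in control libraries (SD, n = 3 each). The counts are of genes that reached 1 FPKM. Slc39a4 and Slc16a7 reached it through the control libraries alone, since their blebbistatin means were below 1. The 5 members nearest to the minimum had means of 1.04 to 1.36 FPKM, and the 5 matching genes just under it, Slc38a3, Slc8a2, Slc45a3, Slc4a4 and Slc22a15, had means of 0.799 to 0.902 FPKM. Of the 186 matching genes under 1 FPKM, 25 were at 0 in every library. Among the other 161 the groups did not overlap for 8 higher (4.97%) and 11 lower (6.83%), beside 4.69% and 5.68% of all genes in that range. With no filter on low values 0 of the 161 passed (limma).

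Levels among the members spanned a wide range, and the most abundant carriers were mitochondrial. The median member averaged 7.46 FPKM, and 65 members reached 10 FPKM. The ADP/ATP carrier Slc25a4, which exports ATP from mitochondria, was at 428, 414 and 390 FPKM in blebbistatin libraries and 510, 364 and 354 FPKM in control libraries. Control replicate 1 was the highest of the 6 libraries, and the groups overlapped. Its paralog Slc25a5 was at 261, 296 and 252 FPKM in blebbistatin libraries and 273, 238 and 206 FPKM in control libraries. The mitochondrial phosphate carrier Slc25a3 was at 329, 361 and 344 FPKM in blebbistatin libraries and 350, 320 and 286 FPKM in control libraries. Slc25a4, Slc25a5 and Slc25a3 did not pass (adjusted p = 0.999, 0.845 and 0.936, limma). Next in level came the amino acid carrier Slc38a2 (mean 124 FPKM), the mitochondrial carrier Slc25a39 (99.4 FPKM), the amino acid carrier heavy chain Slc3a2 (89.6 FPKM), Slc38a4 (66.7 FPKM), Slc7a5 (66.5 FPKM), the zinc carrier of the early secretory pathway Slc39a7 (64.2 FPKM) and the mitochondrial citrate carrier Slc25a1 (59.3 FPKM).

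The 38 mitochondrial carriers held no gene past the threshold. None reached an unadjusted p under 0.05 either, beside 9.36% of all genes. Log2 fold changes lay between -0.27 and 0.23 with a median of 0.016. The groups did not overlap for 2 (5.26%, beside 14.3% of all genes), both aspartate and glutamate carriers of the malate-aspartate shuttle. Slc25a13 was at 17.3, 16.7 and 13.7 FPKM in blebbistatin libraries and 13.6, 13.5 and 12.9 FPKM in control libraries. Slc25a12 was at 5.65, 6.5 and 5.59 FPKM in blebbistatin libraries and 5.59, 5.49 and 4.81 FPKM in control libraries. The lowest blebbistatin value of each lay just above the highest control value, and the adjusted p values were 0.546 and 0.848 (limma). Summed over the 38 genes, the level was 1540 ± 51.2 FPKM in blebbistatin libraries and 1490 ± 182 FPKM in control libraries.

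Among the 11 carriers of chloride, bicarbonate, sulfate and other anions, Slc26a9 had the lowest log2 fold change of any member. Slc26a9, a chloride channel and transporter of epithelia, was at 2.25, 4.76 and 4.07 FPKM in blebbistatin replicates 1 to 3 and 7.25, 10.6 and 6.15 FPKM in control replicates 1 to 3. All 3 blebbistatin values were below all 3 control values, with blebbistatin replicate 1 lowest and control replicate 2 highest. The means were 3.69 ± 1.3 and 7.99 ± 2.29 FPKM, a ratio of 0.462, and the log2 fold change was -0.95 ± 0.24 (SE). It did not pass (adjusted p = 0.193, limma). Without blebbistatin replicate 1 the log2 fold change was -0.70. The potassium and chloride cotransporter Slc12a4, which lets cells lose volume, was at 16.9, 13.9 and 17 FPKM in blebbistatin libraries and 13.2, 10.7 and 15.2 FPKM in control libraries, with overlap. The chloride and bicarbonate exchanger Slc4a2, the most abundant of the class, was at 37.8, 32.3 and 33.1 FPKM in blebbistatin libraries and 36.9, 32.8 and 37.3 FPKM in control libraries. Of the 11 anion carriers 7 had lower and 4 higher mean log2 values, with a median log2 fold change of -0.050.

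Metal carriers (22 genes) held members on both sides, 3 higher and 3 lower without overlap (27.3% in both directions together, beside 14.3% of all genes). Slc39a4, the zinc importer of the intestinal surface, was at 0.824, 0.657 and 0.774 FPKM in blebbistatin libraries, against 1.36, 1.6 and 2.31 FPKM in control libraries. This gene reached the minimum, and so the count, through the control libraries alone. The groups were apart, at 43 to 54 estimated fragments in blebbistatin libraries and 89 to 153 in control libraries (log2 fold change -0.64 ± 0.15, SE, adjusted p = 0.155, limma). Slc31a2, a copper carrier of endosomes and lysosomes, was at 5.22, 5.37 and 4.83 FPKM in blebbistatin libraries and 7.08, 6.24 and 6.36 FPKM in control libraries (adjusted p = 0.271, limma). The magnesium carrier Slc41a1 was the third lower gene without overlap, at 8.93 ± 0.726 FPKM in blebbistatin libraries and 10.2 ± 0.493 FPKM in control libraries (SD, n = 3 each). On the other side, Slc39a10, a zinc importer of the plasma membrane, was at 26.2, 28.7 and 26.1 FPKM in blebbistatin libraries and 21.6, 24.2 and 21.1 FPKM in control libraries, a difference of 0.27 ± 0.09 on the log2 scale (SE, adjusted p = 0.331, limma). The iron importer Slc11a2 (means 9.62 ± 0.345 and 8.87 ± 0.146 FPKM in blebbistatin and control libraries) and the zinc exporter Slc30a1 (4.22 ± 0.224 and 3.78 ± 0.212 FPKM) were also higher without overlap, by log2 0.11 and 0.13, and did not pass. Slc30a1 overlaps exons of an antisense gene, and no source used here states that strand was counted, so its value is uncertain. All 6 tested members of the zinc efflux family Slc30 had log2 fold changes between 0.001 and 0.125, and the 10 of the zinc import family Slc39 divided evenly.

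**Figure D2:**
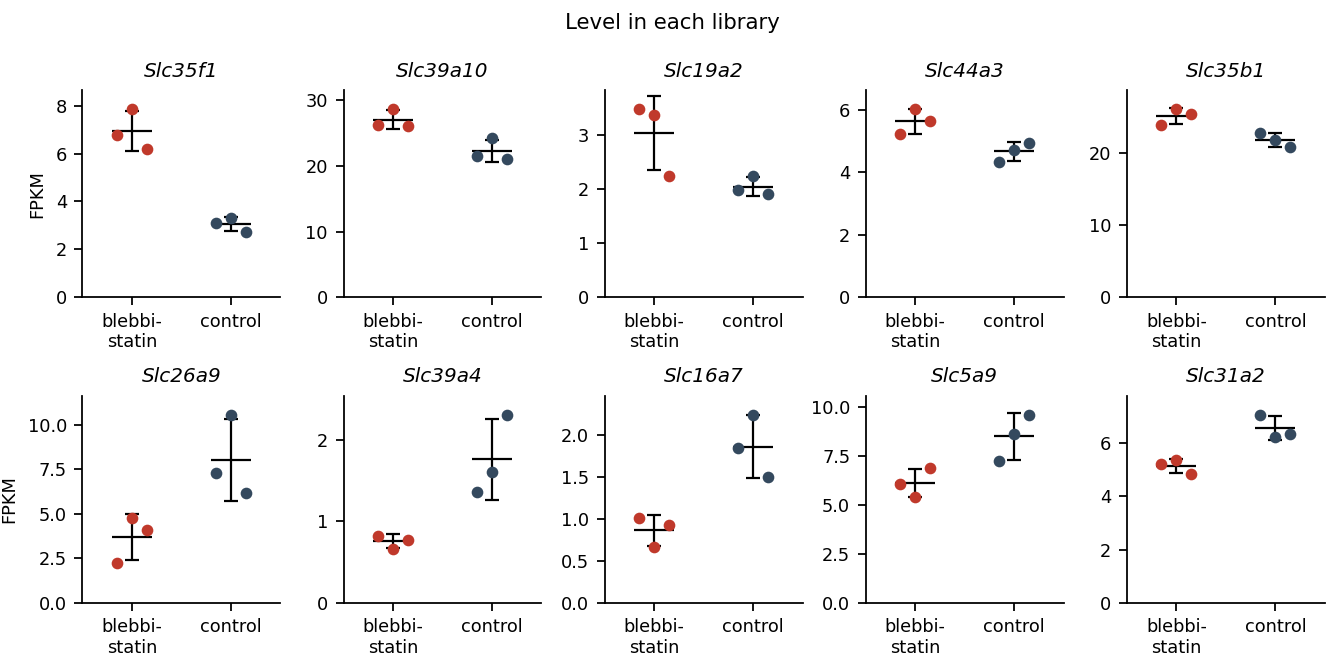
FPKM of 10 solute carriers in each of the 3 blebbistatin libraries (red, left) and 3 control libraries (dark, right); horizontal bars are means and error bars the SD. In Slc35f1 the blebbistatin values of 6.2 to 7.87 FPKM lie above the control values of 2.73 to 3.32 FPKM, while in Slc19a2 the third blebbistatin library (2.24 FPKM) lies among the controls.

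Of 4 carriers of monocarboxylates and thyroid hormone 1 was lower without overlap, and of 8 carriers of sugars and inositol 2 were, beside 6.8% of all genes. None was higher without overlap, and none passed. Slc16a7, a high-affinity carrier of lactate and pyruvate, was at 1.01, 0.66 and 0.922 FPKM in blebbistatin libraries, against 1.85, 2.24 and 1.5 FPKM in control libraries. It reached the minimum through the control libraries alone. The groups were apart at low counts, 47 to 71 estimated fragments in blebbistatin libraries and 108 to 190 in control libraries (log2 fold change -0.62 ± 0.14, SE, adjusted p = 0.148, limma). Slc5a9, a sodium-coupled sugar carrier, was at 6.06, 5.43 and 6.89 FPKM in blebbistatin libraries and 7.23, 8.64 and 9.62 FPKM in control libraries, without overlap (log2 fold change -0.41 ± 0.12, adjusted p = 0.269, limma). Slc5a3, which takes up myo-inositol and is known for its response to hypertonicity, was at 1.96, 1.71 and 2.03 FPKM in blebbistatin libraries and 2.34, 3.07 and 2.71 FPKM in control libraries. Its exons overlap those of Mrps6 on the same strand, so that its value is uncertain. The insulin-responsive glucose carrier Slc2a4 was at 17.5, 18.9 and 24.1 FPKM in blebbistatin libraries and 14.9, 12.3 and 18.8 FPKM in control libraries, with overlap and a log2 fold change of 0.38 ± 0.17 (adjusted p = 0.533, limma). Of the 8 sugar and inositol carriers, 5 had lower and 3 higher mean log2 values (median -0.121).

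All 3 expressed members of the sugar phosphate family Slc37 lay lower in blebbistatin libraries without overlap, beside 6.8% of all genes. None passed. Slc37a4 brings glucose-6-phosphate into the ER, where glucose-6-phosphatase acts on it. It was at 4.41, 5.3 and 5.05 FPKM in blebbistatin libraries and 6.66, 5.87 and 6.22 FPKM in control libraries (log2 fold change -0.29 ± 0.10, adjusted p = 0.319, limma). Slc37a1 was at 1.36, 1.54 and 1.22 FPKM in blebbistatin libraries and 1.91, 1.85 and 1.78 FPKM in control libraries. Slc37a3 was at 22.6, 21.8 and 21.6 FPKM in blebbistatin libraries and 24.9, 24.7 and 22.6 FPKM in control libraries. For Slc37a3 the nearest values of the groups differed by less than the rounding shown. Summed over the 3 genes, the level was 28.3 ± 0.384 FPKM in blebbistatin libraries and 32.2 ± 1.44 FPKM in control libraries (SD, n = 3 each).

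The means of the main Slc37a4 transcripts differed in opposite directions, and neither passed. The gene lies on the plus strand of mm10 at chr9:44396927-44402968 and has 3 annotated transcripts that differ in their first exon. The 2348-nt transcript, whose first exon of 352 nt is at chr9:44397095-44397446, was at 2.78, 2.77 and 3.1 FPKM in blebbistatin libraries and 5.07, 4.63 and 4.4 FPKM in control libraries. All its blebbistatin values were lower (log2 fold change -0.55 ± 0.11, SE, adjusted p = 0.208, limma over transcripts). The 2061-nt transcript, whose first exon of 65 nt is upstream at chr9:44396927-44396991, was at 1.63, 2.06 and 1.56 FPKM in blebbistatin libraries and 1.59, 1.24 and 1.17 FPKM in control libraries, with overlap. Its share of the summed FPKM of the gene was 37%, 38.9% and 30.9% in blebbistatin libraries, against 23.9%, 21.2% and 18.8% in control libraries. The shares did not overlap, and the difference did not pass over all transcript shares tested (adjusted p = 0.975, limma).

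**Figure D3:**
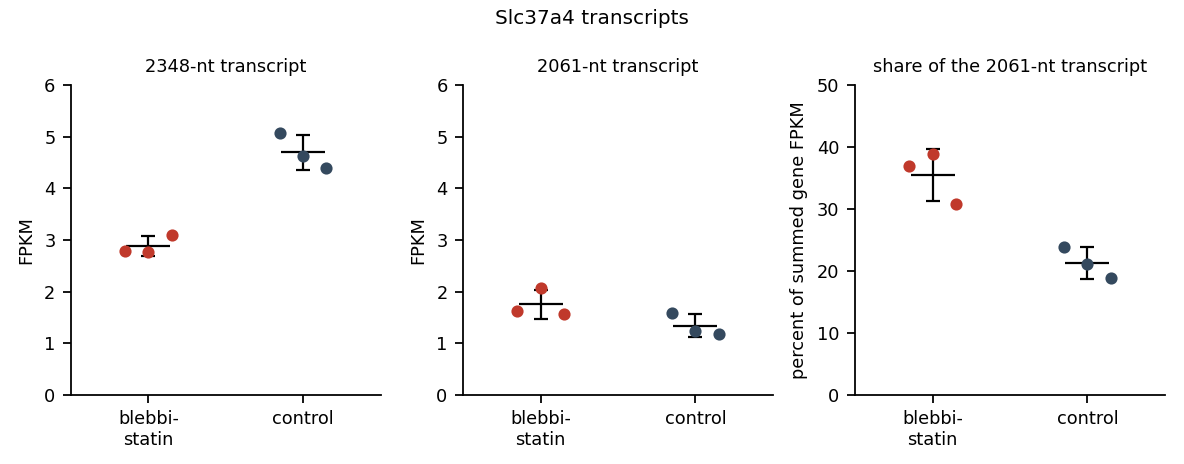
FPKM of the 2348-nt and the 2061-nt transcript of Slc37a4, and the share of the 2061-nt transcript in the summed FPKM of the gene, in 3 blebbistatin libraries (red, left) and 3 control libraries (dark, right). Bars are means and error bars the SD; the longer transcript is lower in every blebbistatin library, and the share of the shorter one averages 35.6% in blebbistatin libraries and 21.3% in control libraries.

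The 170 genes have 262 annotated transcripts, 117 genes having just 1, and 201 transcripts averaged at least 1 FPKM. None of these passed (0 of 201, limma), with 17 at an unadjusted p under 0.05 (beside 8.08% of 14460 transcripts) and 26 without overlap (beside 13.3%). The single transcript of Slc35f1 had an adjusted p of 0.153 in this test, in which 1 of all 14460 transcripts passed (0.00692%). Shares were tested for 60 transcripts of 28 members, and 0 of them passed, beside 0 of all 4997 shares. Of the 60 shares, 5 had an unadjusted p under 0.05 (beside 4.56%) and 6 did not overlap between groups (beside 9.33%). In the amino acid carrier Slc38a10 the 4568-nt transcript made up 64%, 58.4% and 59.3% in blebbistatin libraries and 71%, 68% and 68.5% in control libraries. The next most abundant transcript of Slc38a10, of 4565 nt, is nearly the same in length. In Slc12a4 the 3826-nt transcript made up 89.4%, 89.7% and 90.5% in blebbistatin libraries and 96.7%, 92.5% and 96.6% in control libraries.

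Amino acid and peptide carriers (26 genes) had 17 lower and 9 higher mean log2 values with a median of -0.026, and none passed. Slc43a2, which releases branched-chain and aromatic amino acids, was at 1.71, 2.47 and 2.03 FPKM in blebbistatin libraries and 2.62, 3.84 and 2.9 FPKM in control libraries, without overlap (log2 fold change -0.42 ± 0.14, adjusted p = 0.351, limma). Slc7a4, a relative of the cationic amino acid carriers, was at 3.5, 3.56 and 3.97 FPKM in blebbistatin libraries and 4.66, 4.09 and 4.85 FPKM in control libraries, also without overlap. Slc7a10, a carrier of small neutral amino acids, was at 0.629, 1.2 and 1.87 FPKM in blebbistatin libraries and 1.77, 1.98 and 2.92 FPKM in control libraries. Blebbistatin replicate 3 lay within the control range. Its log2 fold change of -0.55 ± 0.22 (adjusted p = 0.46, limma) moved to -0.34 when blebbistatin replicate 1 was left out. Exons of Slc7a10 overlap those of Lrp3 on the opposite strand, so its value is uncertain too. The large neutral amino acid carrier Slc7a5 was at 41.4, 72.2 and 72.5 FPKM in blebbistatin libraries and 56.8, 79.7 and 76.7 FPKM in control libraries, lowest in replicate 1 of each group. Its partner chain Slc3a2 was at 84.4, 94.8 and 94.9 FPKM in blebbistatin libraries and 82.5, 85.4 and 95.7 FPKM in control libraries. All 6 members of the Slc38 family had log2 fold changes between -0.16 and -0.03, and none passed.

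The Slc35 family of 21 genes, Slc35f1 among them, was centred near 0, with a median of 0.017. Slc35b1, which exchanges ATP for ADP across the ER membrane, was at 23.9, 26.1 and 25.4 FPKM in blebbistatin libraries and 22.8, 21.7 and 20.9 FPKM in control libraries, without overlap (log2 fold change 0.20 ± 0.08, adjusted p = 0.498, limma). Slc35e3, whose substrate is not established, was at 17.4, 19 and 16.8 FPKM in blebbistatin libraries and 20.7, 23.8 and 20.5 FPKM in control libraries, with every blebbistatin value lower (log2 fold change -0.27 ± 0.09, adjusted p = 0.352, limma). The most abundant member, Slc35a4, averaged 43.9 ± 2.79 FPKM in blebbistatin libraries and 43.1 ± 5.28 FPKM in control libraries. The nucleotide sugar carriers of the Golgi in this class did not include another gene without overlap.

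Of the 10 carriers of organic ions, bile acids, choline and urea, 4 were without overlap (40%, beside 14.3% of all genes). Slc44a3, Slc6a8 and Slc22a23 were higher and Slc44a2 was lower. Of the 3 members of the choline carrier family Slc44, 1 was thus without overlap on each side (66.7% together). Slc44a2 was at 40.4, 37.6 and 40.2 FPKM in blebbistatin libraries, against 46.9, 46.6 and 46.9 FPKM in control libraries (log2 fold change -0.24 ± 0.08, adjusted p = 0.312, limma). Slc44a3 was at 5.24, 6.03 and 5.63 FPKM in blebbistatin libraries and 4.33, 4.73 and 4.96 FPKM in control libraries, all blebbistatin values higher (0.23 ± 0.09, adjusted p = 0.489, limma). The creatine carrier Slc6a8 (means 14.2 ± 0.461 and 12.6 ± 0.69 FPKM in blebbistatin and control libraries) and Slc22a23, whose substrate is not established (2.89 ± 0.18 and 2.53 ± 0.134 FPKM), were higher without overlap and did not pass. The thiamine carrier Slc19a2 was at 3.48, 3.36 and 2.24 FPKM in blebbistatin libraries and 1.98, 2.24 and 1.91 FPKM in control libraries, so that 2 of 3 blebbistatin values lay above all controls and replicate 3 did not (adjusted p = 0.39, limma). The folate carrier Slc19a1 averaged 8.99 ± 0.938 FPKM in blebbistatin libraries and 9.82 ± 0.598 FPKM in control libraries. The multivitamin carrier Slc5a6 was the 1 vitamin carrier without overlap (12.5% of 8 genes, beside 14.3% of all genes). It was at 3.36, 3.6 and 3.38 FPKM in blebbistatin libraries and 3.79, 3.7 and 3.73 FPKM in control libraries.

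Exons of 17 members overlap those of another gene, which leaves their values uncertain, among them Slc35a4, Slc35f6, Slc5a6 and Slc20a2. The remaining classes were small. The mitochondrial sodium and calcium exchanger Slc8b1 was at 4.77, 4.05 and 4.07 FPKM in blebbistatin libraries and 5.91, 4.89 and 5.07 FPKM in control libraries, without overlap (adjusted p = 0.507, limma). The scaffold proteins Slc9a3r1 and Slc9a3r2 carry no solute and are members by symbol. They averaged 39.8 ± 5.71 and 43.4 ± 8.05 FPKM, and 3.46 ± 0.445 and 3.12 ± 0.481 FPKM, in blebbistatin and control libraries. The 5 nucleoside, 4 phosphate and vesicular, and 3 fatty acid carriers had no gene without overlap. Among them the phosphate carrier Slc20a2 was at 39.9 ± 4.09 FPKM in blebbistatin libraries and 45.6 ± 2.54 FPKM in control libraries, the nucleoside carrier Slc29a4 at 12.9 ± 1.12 and 15.1 ± 2.04 FPKM, and the fatty acid carrier Slc27a1 at 47.4 ± 5.99 and 54.6 ± 11.7 FPKM (SD, n = 3 each).

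**Figure D4:**
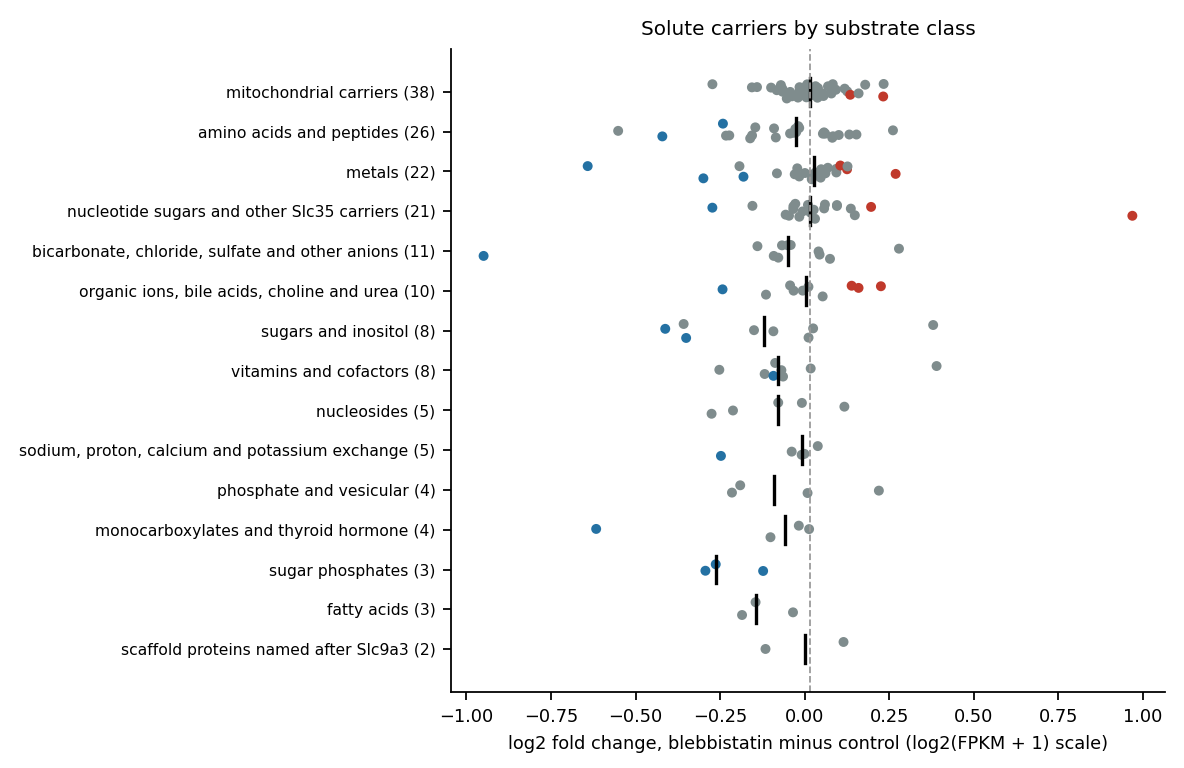
Log2 fold change (blebbistatin minus control, log2(FPKM + 1) scale) of each of the 170 genes by substrate class, with the class size in brackets. Black bars are class medians, the dashed line is the median of all 11540 genes (0.015), and red and blue mark genes whose groups did not overlap; the mitochondrial class runs from -0.27 to 0.23, and the 3 sugar phosphate carriers all lie below 0.

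Genes that supply gradients or partners to these carriers were described from separate lists. The lists were chosen with earlier results of these data known, so nothing is read from their shares. Of 19 tested ion pumps 0 passed an adjusted p of 0.05 (limma), with 1 higher and 3 lower at an unadjusted p under 0.05 (21.1%, beside 9.36% of all genes) and a median log2 fold change of -0.030. Atp2a3, a calcium pump of the ER, was at 34.2, 63 and 55.6 FPKM in blebbistatin libraries and 103, 127 and 118 FPKM in control libraries (log2 fold change -1.21 ± 0.21, adjusted p = 0.0785). The sodium pump subunit Atp1b1 was at 46.1, 39.9 and 41 FPKM in blebbistatin libraries and 48.6, 49.9 and 48.7 FPKM in control libraries, also without overlap. Of 15 accessory subunits and regulators 0 passed, with 2 higher and 3 lower at an unadjusted p under 0.05 (33.3%, beside 9.36% of all genes). Fxyd3, a small subunit of the sodium pump, was at 531, 640 and 525 FPKM in blebbistatin libraries and 1072, 870 and 879 FPKM in control libraries (log2 fold change -0.73 ± 0.13, adjusted p = 0.0929, limma). Stk39, a kinase that acts on cation and chloride cotransporters, averaged 16.8 ± 3.83 FPKM in blebbistatin libraries and 27.4 ± 5.55 FPKM in control libraries, and Nedd4l, a ubiquitin ligase of membrane carriers and channels, 8.1 ± 0.66 and 5.76 ± 0.503 FPKM. Of 20 genes of the amino acid response 0 passed and 2 reached an unadjusted p under 0.05, beside 9.36% of all genes, with Phgdh higher (283 ± 19.6 and 222 ± 18.4 FPKM in blebbistatin and control libraries) and Ddit4 lower (29.7 ± 4.78 and 39.3 ± 4.33 FPKM). Of 8 tested carriers with other names 0 passed, with 1 lower at an unadjusted p under 0.05 (12.5%, beside 9.36% of all genes). That gene, the prostaglandin carrier Slco2a1, named after its values were seen, averaged 19.6 ± 5.98 FPKM in blebbistatin libraries and 28.2 ± 5.17 FPKM in control libraries.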

How the data were processed

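The submitters' processing notes name Bowtie2 2.2.3, Cufflinks 2.2.1, TopHat2 2.0.13 and the build mm10, with no roles. The authors deposited FPKM per gene and per transcript, per the file headers, beside an annotation of mm10. Columns named BB were taken as blebbistatin, and columns without a number as replicate 1. FPKM are not counts, so log2(FPKM + 1) was tested with limma 3.58.1 in R 4.3.3 (empirical Bayes with a mean-variance trend, treatment as the only term) over all 11540 genes with a mean of at least 1 FPKM. Benjamini-Hochberg adjustment ran over all of these, with a threshold of 0.05. Fold changes on this scale understate those of low genes. Transcripts (14460) were tested in the same way. Transcript shares were tested on the arcsine square root scale, for genes with at least 2 transcripts and a mean sum of at least 5 FPKM. The test was tried on simulated data. The members, substrate classes and lists were chosen with earlier results of these data known. The named genes are Slc35f1, the 15 members per direction of smallest p without overlap, the 10 of highest level, 3 per substrate class, the Slc35f genes, those nearest the minimum, 4 transcripts by lowest p for levels and for shares and, in the other lists, genes with an unadjusted p under 0.05. Not every gene so chosen is described singly, and 1 is not reported here. Slc25a4 and Slc25a5 have close paralogs and pseudogenes that can share fragments. Fragment numbers are estimates from FPKM, length and estimated depth, and cover counting error only.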

Additional observations from a re-analysis of the deposited data

How the results depend on the processing

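The call of Slc35f1 depended on the processing, and its direction did not. It passed with a pseudocount of 0.1, quantile normalization, array weights and without blebbistatin replicate 3. The count of solute carriers past the threshold was 0 with a minimum of 5 FPKM, where Slc35f1 is just under the minimum and was not tested, 0 with no filter on low values, 0 with median-of-ratios rescaling (adjusted p = 0.0505), and 0 to 1 when 1 library was left out. No other member passed under any of these. The count over all genes, 9, was 27 with a minimum of 5 FPKM, 1 with no filter, 2 with median-of-ratios rescaling, 14 with quantile normalization, 57 with array weights and 1 to 13 without 1 library. A replicate block, for which the labels give numbers but no shared source, raised the count to 144 genes (53 higher, 91 lower), among the members Slc35f1 alone (adjusted p = 0.0183). Deviations of same-numbered libraries correlated at 0.182, 0.094 and 0.253, and each library correlated best with its own number, a hint from the data and not the design. The count of members without overlap, 26, was 15 with a minimum of 5 FPKM and 33 to 49 without 1 library, where fewer values make overlap rarer. The median of the members, -0.015, was -0.002 with a minimum of 5 FPKM, -0.025 with median-of-ratios rescaling and -0.019 to -0.005 without 1 library. No member transcript passed under any alternative, and no share with a minimum gene sum of 2 FPKM, a replicate block or 1 library left out. Signs turned for Slc27a3 (-0.145, and -0.271 to 0.038 without 1 library, positive without control replicate 1) and Slc5a8 (-0.101, and -0.206 to 0.033, positive at 0.032 without blebbistatin replicate 3 and at 0.033 without control replicate 2). Causes were not tested.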
